A study of Mus musculus with 4 samples.

Results

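The genes described here encode the enzymes of glucuronidation and sulfation and the carboxylesterases. They were found by symbol and number 59 of the 55416 gene identifiers in the deposited tables: 19 UDP-glucuronosyltransferases (families Ugt1a, Ugt2a and Ugt2b), 21 sulfotransferases (Sult) and 19 carboxylesterases (Ces). They were measured by RNA sequencing in small intestinal organoids of C57BL/6 mice, which are epithelial cultures usually grown in a basement-membrane gel. The 2 adult libraries came from mice aged 4 to 8 weeks and the 2 fetal libraries from E15.5 embryos, and all organoids were kept in the same commercial medium. No genetic change or treatment is named in the labels for either group. The labels do not say whether the 2 libraries of a group came from separate animals or cultures, so p-values cover only the spread seen among these 4 libraries, and that spread may be technical.

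UDP-glucuronosyltransferases sit in the endoplasmic reticulum and join glucuronic acid, donated by UDP-glucuronic acid, to bilirubin, steroids, bile acids, phenols and drugs. Cytosolic sulfotransferases add a sulfate group, donated by PAPS, to phenols, catecholamines and steroids. Carboxylesterases cleave ester and amide bonds in drugs and lipids and often expose the group that is then conjugated. In the adult small intestine these enzymes are known mainly from absorptive enterocytes, where they act on compounds entering from the lumen.

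Transcripts of all 3 families stood far lower in fetal than in adult organoids. In TPM, a transcript level scaled for gene length and library size, the 59 genes together summed to 1586 and 1552 in the adult libraries and to 126.5 and 126.8 in the fetal libraries, a 12.4-fold difference. The carboxylesterases differed most, with 838.5 and 837 TPM in adult against 22.1 and 22.8 TPM in fetal libraries (37.3-fold). The sulfotransferases summed to 103 and 102 TPM against 10.7 and 10.6 TPM (9.62-fold). The glucuronosyltransferases summed to 645 and 613 TPM against 93.7 and 93.4 TPM (6.72-fold). In each family both adult sums lay above both fetal sums. These TPM sums are given as values without a test; an exact permutation test (two-sided) of 2 libraries against 2 cannot go below p = 0.333. Counts summed by subfamily are tested below in edgeR.

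Gene by gene, the test was edgeR's quasi-likelihood test on the whole table, with p-values adjusted by the Benjamini-Hochberg method over the 14271 genes tested and a call at an adjusted p under 0.05. Of the 59 genes 29 had enough counts to be tested, and 26 of those fell in fetal organoids, 2 rose and 1 was not called. Over all genes tested 32.7% fell, 33.9% rose and 66.5% were called in either direction. The median log2 fold change of the 29 was -4.38, against 0.01 over all genes tested. Falls of at least 4-fold were seen for 25 of the 29, against 5.72% of all genes tested, and falls of at least 16-fold for 19, against 2.05%. The adult and fetal libraries did not overlap in CPM for any of the 29, which also held for 82.7% of all genes tested. These counts describe the genes that passed the filter on low counts and are no support by themselves. Of the 29, 9 had no fetal library past that filter: Ugt1a2, Ugt1a9, Ugt2b5, Sult1c2, Sult6b2, Ces1b, Ces1d, Ces1f and Ces1g. Another 2, Sult4a1 and Ces2f, had no adult library past it. Those 11 were tested only because one group was high. The other 30 genes were not tested. Of these, 20 had no count in any library, and the other 10 reached at most 15.97 estimated counts in a library.

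**Figure D1:**
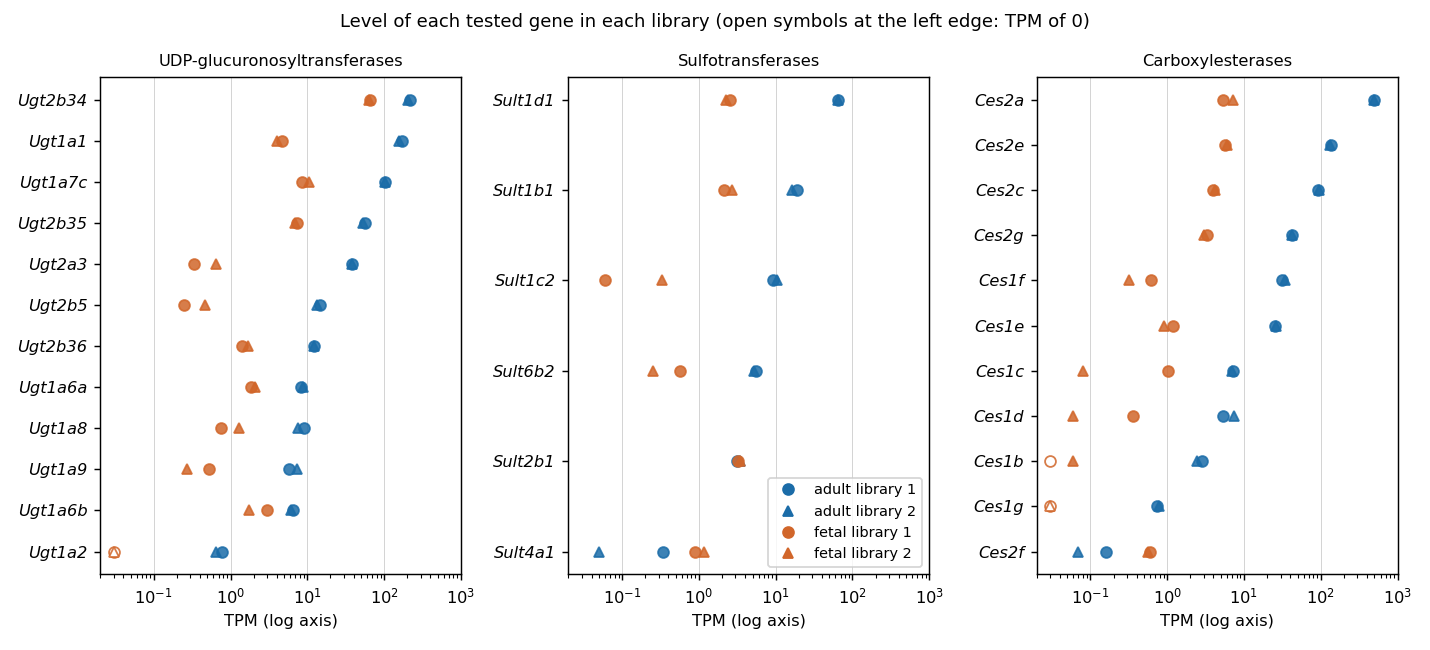
Level of each tested gene in each library, in TPM on a log axis, with circles and triangles for libraries 1 and 2 of the adult (blue) and fetal (orange) groups and open symbols at the left edge for a TPM of 0. The fetal symbols lie to the left of the adult ones for all genes shown except Sult2b1, where they coincide, and Sult4a1 and Ces2f, where they lie to the right.

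The libraries held 10862147 to 13061585 estimated counts. Mitochondrial transcripts took 17.5% to 17.6% of adult and 6.98% to 7.82% of fetal counts, and their part in the differences was not tested. CPM values below are counts scaled to library size and corrected with edgeR's TMM factors. Epithelial markers were abundant in both groups, with a summed level of 4313 to 4320 CPM in adult and 6810 to 6839 CPM in fetal libraries over 8 genes, none of them at 0. Their directions were mixed: Cdh1, Krt8, Krt18 and Krt19 rose, Epcam, Vil1 and Cdx1 fell, and Cdx2 was not called. Over all genes tested 32.7% fell and 33.9% rose, the shares to set beside the marker counts here. The 8 markers of mature enterocytes (Alpi, Fabp1, Fabp2, Sis, Lct, Apoa1, Apoa4 and Anpep) all fell, from a summed 1513 to 1514 CPM to 64.1 to 65.7 CPM, with none at 0. Fewer cells of a type and less RNA per cell cannot be told apart in such bulk samples, and the part of the enterocyte markers in the falls below was not tested. Of 8 hepatocyte genes, listed because liver is rich in these enzymes, Fgb, Tat and Ahsg had 0 counts in all 4 libraries and Serpina1a had 0 in adult and 2 in fetal libraries. The 4 tested hepatocyte genes all fell: Alb had 49 counts in adult and 0 in fetal libraries, Ttr 600 and 17, Serpina1b 66 and 24, and Cps1, which intestine also makes, 47968 and 1254. The list summed to 2219 to 2330 CPM in adult and 44.6 to 50.2 CPM in fetal libraries, most of it Cps1, and its part in the falls was not tested. Of 7 mesenchymal markers 6 were tested and all 6 rose. The 7 summed to 3.51 to 3.59 CPM in adult and 64.4 to 67.6 CPM in fetal libraries. Of 6 gastric markers 5 were too low to test, and the 1 tested, Gkn1, rose. The 6 summed to at most 0.201 CPM in adult and 2.13 to 3.63 CPM in fetal libraries. Leukocyte markers summed to 1.75 to 2.41 CPM in adult and 7.20 to 7.54 CPM in fetal libraries, nearly all of it Cd68, with Ptprc at 0 in both fetal libraries. Endothelial markers summed to less than 1 CPM in every library.

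All 12 tested glucuronosyltransferases fell. Of these, Ugt1a2, Ugt1a9 and Ugt2b5 had no fetal library past the filter on low counts and were tested only because adult libraries were high. In the Ugt1a group Ugt1a1, the enzyme that conjugates bilirubin, stood at 172 and 158 TPM in adult and 4.65 and 4.02 TPM in fetal libraries (log2 fold change -5.63 ± 0.07 SE, adjusted p = 1.13e-14 in edgeR). Ugt1a7c stood at 102 and 104 TPM against 8.45 and 10.6 TPM (log2 fold change -3.86 ± 0.06 SE). Ugt1a1 was the higher of both in each adult library and Ugt1a7c in each fetal library; the difference between their falls was not tested. Ugt1a6a, a phenol-conjugating form, fell from 8.39 and 8.87 to 1.84 and 2.06 TPM (log2 fold change -2.86 ± 0.14 SE). The remaining members of this group were below 10 TPM in every library. Their estimated counts fell from 132 and 112 to 58.04 and 32.3 for Ugt1a6b, from 184 and 136 to 14.5 and 23.3 for Ugt1a8, and from 116 and 131 to 10.04 and 4.85 for Ugt1a9. Ugt1a2 had 28 counts in adult and none in fetal libraries, at least 5.95-fold lower against a floor of 3 counts per library. Ugt1a5 and Ugt1a10 were too low to test, with at most 15.97 and 4.68 counts in a library. Ugt1a6b showed the smallest fall of the group (log2 fold change -1.80 ± 0.21 SE).

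How reads were divided among these genes bears on their single values. The Ugt1a genes lie in a row on chromosome 1, and each joins its own first exon to the same later exons. In the GENCODE M21 gene models 1311 exon bases are common to all 9 of them, which is 30.4% of the model of Ugt1a6a and 59.9% of that of Ugt1a9. Of the 50-base stretches in the transcripts of Ugt1a6b, 79.8% also occur in another of the 59 genes. Single Ugt1a values are therefore uncertain. Summed over the 9 genes before the fit, the counts were 7184 and 6052 in adult and 460 and 437 in fetal libraries (log2 fold change -4.24 ± 0.04 SE, adjusted p = 2.52e-15 in edgeR). That sum does not depend on how reads were split within the group, and it lies between the values of Ugt1a1 and Ugt1a7c. A noncoding transcript on the opposite strand, Gm20528, overlaps all 9 models, and no source used here says whether counting was by strand.

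Ugt1a9 and Ugt1a10 are neighbours that share a run of letters before the first exon, and both stretches are shown because the adult levels of these genes were far apart. Each line gives the 150 bases up to the annotated start from RefSeq (GRCm38.p6), 5′ to 3′ on the strand of the gene, with the longest run of letters common to both in capitals.
Ugt1a9 (chr1:88070629-88070778, plus strand): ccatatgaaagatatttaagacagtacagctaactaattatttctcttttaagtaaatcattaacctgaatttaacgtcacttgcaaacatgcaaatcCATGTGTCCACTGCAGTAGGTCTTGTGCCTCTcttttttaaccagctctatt
Ugt1a10 (chr1:88055261-88055410, plus strand): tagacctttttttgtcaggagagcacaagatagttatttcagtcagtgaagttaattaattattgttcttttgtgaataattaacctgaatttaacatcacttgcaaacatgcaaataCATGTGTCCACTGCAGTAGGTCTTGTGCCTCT

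Within these 150 bases the common run is 32 bases long. It ends 20 bases before the start of Ugt1a9 and reaches the last base shown for Ugt1a10. Bases past the start were not searched, so the run may be longer than shown. Laid on that run without gaps, both stretches are alike at 86 of 130 bases. Adult levels were 5.80 and 7.43 TPM for Ugt1a9 and 0.20 and 0 TPM for Ugt1a10. Fetal levels were 0.53 and 0.27 TPM for Ugt1a9 and 0.24 and 0 TPM for Ugt1a10. Of the 50-base transcript stretches of Ugt1a9, 61.8% also occur in Ugt1a10, so their counts are partly divided by estimate. In 300-base RefSeq windows around the start (32851 in all, with 50 of the 59 genes), searched on both strands, CAAAGTCCA, a form of the HNF4 site, was found in 1 of the 50 genes (Sult1b1) and 0.475% of all windows, and CATAAA, a core of CDX sites, in 7 and 11.9%. The letters AGATAA, bound by GATA factors, were found in 13 and 11.2%, TNGCGTG, a site of the aryl hydrocarbon receptor, in 2 and 5.07%, and TGACNNNGC, an NRF2 site, in none and 12.4%. In each pair the count is of genes with a match in any of their windows, and the percentage is of single windows. Some genes had several windows, so the count and the percentage are unlike measures. The letters were set after other forms had been looked at, and a match describes letters, not binding.

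All 5 tested genes of the Ugt2 groups fell, Ugt2b5 being tested only because its adult libraries were high. Ugt2b34 was the most abundant glucuronosyltransferase in both groups, at 219 and 204 TPM in adult and 64.6 and 63.4 TPM in fetal libraries, and its fall was small for the family (log2 fold change -2.11 ± 0.04 SE, adjusted p = 2.19e-13 in edgeR). It made up 33.6% of the family's summed TPM in adult and 68.4% in fetal organoids. Ugt2a3 was nearly lost, from 37.6 and 37.9 to 0.33 and 0.64 TPM (log2 fold change -6.67 ± 0.15 SE), and its share of the family's sum went from 6.01% to 0.518%. Ugt2b35 fell from 56.5 and 52.6 to 7.43 and 6.94 TPM (log2 fold change -3.31 ± 0.07 SE). Ugt2b36 fell from 12.2 and 12.3 to 1.42 and 1.69 TPM, and Ugt2b5 from 14.4 and 13.6 to 0.25 and 0.46 TPM. Of the transcript stretches of Ugt2b5, 41.7% occur in another member, mostly Ugt2b38, which itself had no counts. Ugt2b1 and Ugt2b37 had at most 5 and 1.05 counts in a library, and Ugt2a1 and Ugt2a2 had none, though a coding gene on the same strand, Gm43638, overlaps the models of those last 2. With counts summed by group, the log2 fold change was -2.36 ± 0.04 SE for Ugt2b and -6.67 ± 0.15 SE for Ugt2a, where Ugt2a3 gives all of the sum. With 6 and 11 fetal counts, the Ugt2a value was -6.24 without fetal replicate 1 and -7.23 without fetal replicate 2.

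Of the 6 tested sulfotransferases 4 fell, 1 rose and 1 was not called. Sult1c2 and Sult6b2, among those that fell, had no fetal library past the filter on low counts. They were tested only because the adult libraries were high. Sult1d1, known for sulfating catecholamines, was the most abundant in adult organoids at 65.1 and 65.5 TPM and fell to 2.57 and 2.23 TPM (log2 fold change -5.30 ± 0.10 SE, adjusted p = 1.80e-13 in edgeR). Sult1b1, which sulfates thyroid hormones and phenols, fell from 18.8 and 16.4 to 2.15 and 2.7 TPM (log2 fold change -3.25 ± 0.19 SE). Sult1c2 fell from 9.20 and 10.4 to 0.06 and 0.33 TPM. Its fetal libraries held 1 and 5 counts. Its log2 fold change was -5.98 ± 0.34 SE, -5.20 without fetal replicate 1 and -7.496 without fetal replicate 2. Sult6b2 fell from 5.59 and 5.21 to 0.56 and 0.25 TPM (log2 fold change -4.30 ± 0.34 SE). Its fetal libraries held 8 and 3 counts, and the value was -5.07 without fetal replicate 1 and -3.83 without fetal replicate 2. These 4 genes gave 95.8% of the adult and 51.0% of the fetal sulfotransferase sum.

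Sult2b1, which sulfates cholesterol and other hydroxysteroids, was low in both groups and was not called. It had 3.12 and 3.46 TPM in adult and 3.20 and 3.40 TPM in fetal libraries, so the groups overlapped on that scale. On the TMM scale it stood at 2.89 and 3.01 against 2.31 and 2.13 CPM (log2 fold change -0.41 ± 0.28 SE, adjusted p = 0.221 in edgeR), where the groups did not overlap. It ranked 5 among the sulfotransferases by TPM in adult and 1 in fetal organoids, where it gave 31.0% of the family's sum against 3.21% in adult. Its models overlap 2 genes on the opposite strand, Lmtk3 and Gm31597, so part of its counts could belong to them. Sult4a1, a form known from neurons with little known enzyme activity, rose from 0.34 and 0.05 to 0.89 and 1.15 TPM. No adult library of Sult4a1 passed the filter on low counts, so it was tested only because the fetal libraries were high. Its estimated counts were 4 and 1 in adult and 15 and 19 in fetal libraries (log2 fold change 2.36 ± 0.59 SE, adjusted p = 0.00366 in edgeR). Without adult replicate 2 this call was lost (log2 fold change 1.79, adjusted p = 0.0612 in edgeR), and with that library kept and adult replicate 1 left out the value was 3.50.

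The other 15 sulfotransferases were not tested, 11 of them with no count in any library. Among those at 0 were Sult1e1, the estrogen sulfotransferase, Sult1c1, both Sult3a genes and 7 of the 8 Sult2a genes, which sulfate hydroxysteroids and bile acids. The eighth, Sult2a8, had 1 count in all. A count of 0 in a library allows up to 0.23 to 0.276 CPM of that library's total (3 counts; counting error only). Sult1a1, the main phenol sulfotransferase, had 4 and 2 counts in adult and 12 and 2.34 counts in fetal libraries, and the groups overlapped.

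Of the 11 tested carboxylesterases 10 fell and 1 rose. Ces2a was the most abundant of all 59 genes in adult organoids, at 498 and 489 TPM, and fell to 5.31 and 7.12 TPM (log2 fold change -6.71 ± 0.07 SE, adjusted p = 2.60e-15 in edgeR). Its estimated counts were 8549 and 7455 in adult and 87 and 109 in fetal libraries. Ces2e fell from 135 and 132 to 5.74 and 6.06 TPM (log2 fold change -4.89 ± 0.06 SE). Ces2c, known for hydrolysis of diacylglycerol and triacylglycerol, fell from 91.3 and 96.2 to 3.98 and 4.18 TPM (log2 fold change -4.90 ± 0.08 SE), and Ces2g from 41.8 and 42.5 to 3.32 and 3.04 TPM (log2 fold change -4.11 ± 0.08 SE). The order Ces2a, Ces2e, Ces2c, Ces2g was the same in both groups by mean TPM, but in fetal library 1 Ces2e stood above Ces2a, and those neighbours do not differ there beyond their spread. Ces2a gave 58.9% of the adult and 27.7% of the fetal carboxylesterase sum.

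Ces2f went the other way. It lies between Ces2e and Ces2g in the same row of genes on chromosome 8, and rose from 0.16 and 0.07 to 0.60 and 0.56 TPM. No adult library of Ces2f passed the filter on low counts, so it was tested only because the fetal libraries were high. Its estimated counts were 4.02 and 3.01 in adult and 26 and 23 in fetal libraries (log2 fold change 2.41 ± 0.47 SE, adjusted p = 0.000616 in edgeR). The groups did not overlap in CPM, which also held for 82.7% of all genes tested. Ces2f thus stayed at a trace level in both groups, below its neighbours Ces2e and Ces2g in every library. Only 1.54% of its transcript stretches occur in another member. Ces2b had 3.07 and 1.02 counts in adult and 0 and 4 counts in fetal libraries and was not tested, and Ces2h had none. Summed over the Ces2 genes, the counts were 13803 and 12110 against 365 and 375 (log2 fold change -5.49 ± 0.05 SE, adjusted p = 1.15e-15 in edgeR).

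The Ces1 genes were lower than the Ces2 genes in adult organoids, with a sum of 72.4 and 77.9 TPM against 766 and 759 TPM, and all 6 tested members fell. No fetal library of Ces1b, Ces1d, Ces1f or Ces1g passed the filter on low counts. Those genes were tested only because the adult libraries were high, so their falls are no support by themselves. Ces1f was the most abundant, at 30.9 and 34.2 TPM in adult and 0.61 and 0.32 TPM in fetal libraries (log2 fold change -7.43 ± 0.18 SE, adjusted p = 2.95e-12 in edgeR). It had 506 and 470 counts against 3 and 4. Ces1e fell from 25.3 and 26.2 to 1.20 and 0.92 TPM (log2 fold change -5.29 ± 0.17 SE). Ces1d, known as a triacylglycerol hydrolase, had 97 and 94 counts in adult and 1 and 1 in fetal libraries, a ratio of 123 (95% counting interval 33.5 to 1020, Clopper-Pearson). Ces1b had 1 count in fetal and 89 in adult libraries, a ratio of 114 (95% counting interval 20 to 4566). Ces1g had 31 counts in adult and none in fetal libraries, at least 6.64-fold lower.

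Ces1c, a secreted esterase of mouse plasma, was the least even of the Ces1 genes. It had 120 and 96.8 counts in adult and 16 and 1.10 counts in fetal libraries, so that fetal replicate 1 alone held nearly all of the fetal reads. Its log2 fold change was -4.01 ± 0.42 SE, and it was -6.86 without fetal replicate 1 and -3.18 without fetal replicate 2. It stayed called in both cases. Ces1b and Ces1c share 9.92% of the stretches of Ces1b, so their counts are partly divided by estimate. Ces1a and Ces1h had no counts. Summed over the Ces1 genes the log2 fold change was -5.81 ± 0.11 SE. Outside the Ces1 and Ces2 genes, Ces3a, Ces3b and Ces4a had no count and Ces5a had at most 2 in a library.

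**Figure D2:**
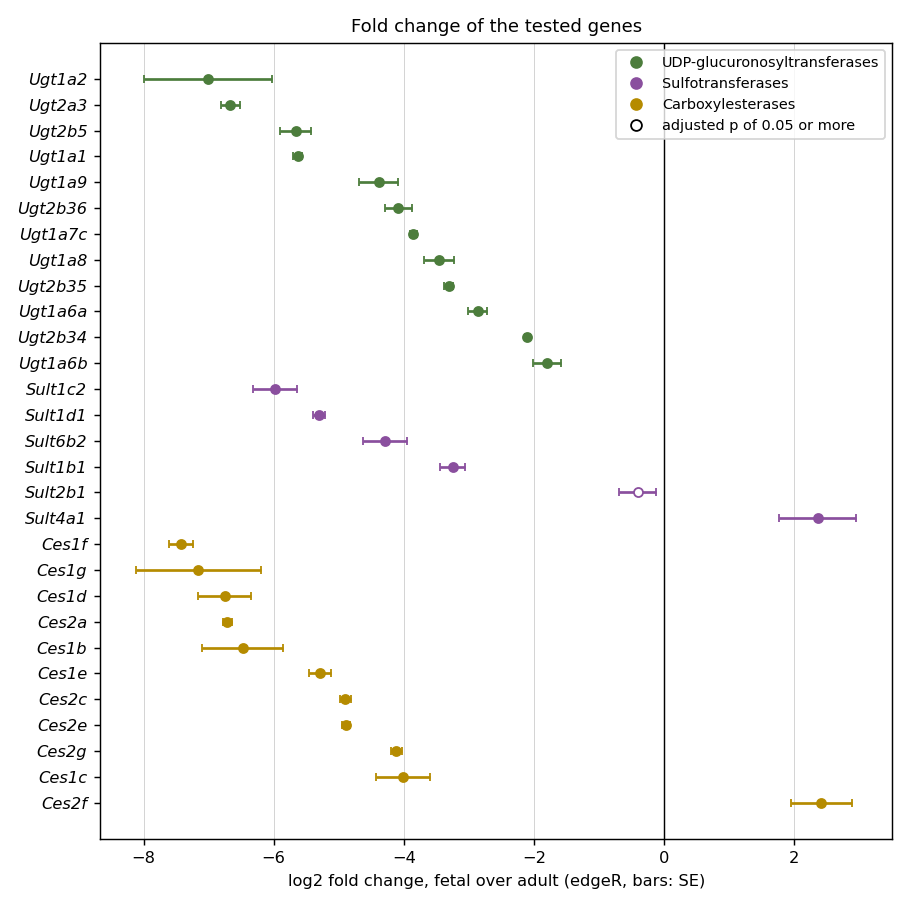
Log2 fold change of fetal over adult for the 29 tested genes, with the standard error as bars, coloured by family and filled where the adjusted p was under 0.05. The values run from -7.43 for Ces1f to 2.41 for Ces2f, and Sult2b1, at -0.41, is the 1 open symbol; the positions of Ugt1a2 and Ces1g, with no fetal count, depend on the prior count of the fit.

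Most of the genes lie in rows with their relatives, and the rows held genes of very unequal level. In RefSeq gene order (GRCm38.p6) 13 members follow one another on chromosome 5 with no other coding gene between them, from Ugt2b34 over the Ugt2a genes to Sult1b1, Sult1d1 and Sult1e1. Of these 13, 7 were tested and all 7 fell. The other 6, Ugt2b1, Ugt2b37, Ugt2b38, Ugt2a1, Ugt2a2 and Sult1e1, had 5 counts or fewer in every library. Sult1d1 lies next to Sult1e1, which had no count. On chromosome 8 one row holds the Ces1 genes with Ces5a and another the Ces2 genes with Ces3a, Ces3b and Ces4a, and Ces2f was the 1 called gene of those rows that rose. The row of 8 Sult2a genes on chromosome 7 was at 0 apart from the 1 count of Sult2a8.

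The make-up of each family differed between the groups, as the plot of shares shows. In adult organoids Ugt2b34, Ugt1a1 and Ugt1a7c gave 33.6%, 26.2% and 16.4% of the glucuronosyltransferase sum. In fetal organoids Ugt1a7c was second at 10.2%, Ugt2b35 next at 7.68%, and Ugt1a1 gave 4.63%. Among sulfotransferases Sult1d1 went from 63.8% to 22.5%, Sult1b1 from 17.2% to 22.8% and Sult4a1 from 0.190% to 9.58%. The fetal sulfotransferase sum is near 10.6 TPM, so shares in it rest on few reads.

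**Figure D3:**
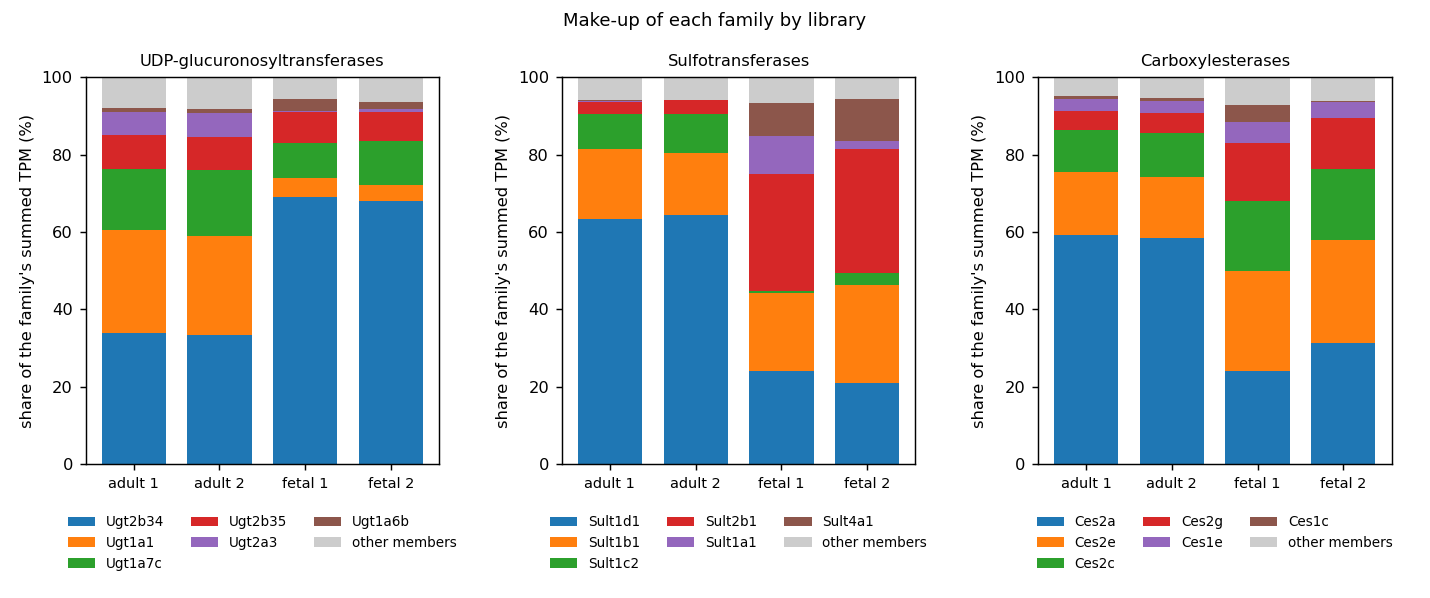
Share of each family's summed TPM, in percent, taken by its 6 leading genes in each of the 4 libraries, with all other members in grey. Ugt2b34 takes the largest part of the glucuronosyltransferase sum in all 4 libraries, 33.6% on average in adult and 68.4% in fetal, whereas Sult1d1 and Ces2a take 63.8% and 58.9% on average in adult and 22.5% and 27.7% in fetal.

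Genes that serve the same reactions moved less evenly. The 7 lists used held 53 genes, of which 52 were found (Sts was not matched) and 46 tested: 26 fell, 12 rose and 8 were not called. That is 56.5% falling, against 32.7% falling and 33.9% rising over all genes tested. The median log2 fold change of the 46 was -0.31. With limma on log2(TPM + 1) 15 fell and 16 rose of 45, where 1796 fell and 6957 rose of 14013 over all genes. With library totals in edgeR 18 fell and 16 rose, where 2973 fell and 6979 rose of 14271 over all genes. Ugdh, which makes UDP-glucuronic acid, fell from 321 and 324 to 72.2 and 76.7 CPM (log2 fold change -2.12 ± 0.04 SE, adjusted p = 2.49e-13 in edgeR). The 4 other genes of this supply differed by at most 0.58 on the log2 scale. Uxs1, which turns UDP-glucuronic acid into UDP-xylose, rose from 38.8 and 37.2 to 48.2 and 48.1 CPM, and the carriers Slc35d1 and Slc35d2 rose by 0.26 and 0.58 on the log2 scale. The calls of Slc35d1 and Slc35d2 were lost with DESeq2 (adjusted p = 0.0761 and 0.19). In edgeR both were also lost without adult replicate 1 (adjusted p = 0.131 and 0.188) and without fetal replicate 2 (0.153 and 0.191), and that of Slc35d2 without adult replicate 2 (0.0806).

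In the sulfate and PAPS list 4 of 8 tested genes fell, 2 rose and 2 were not called, where 32.7% fell and 33.9% rose over all genes. Bpnt1, which clears the spent sulfate donor, fell from 283 and 279 to 141 and 138 CPM (log2 fold change -1.01 ± 0.03 SE), and Papss1, a PAPS synthase, by 0.44 on the log2 scale, a call that was lost on TPM (adjusted p = 0.536 in limma). Slc35b3, a PAPS carrier, fell by 0.33 on the log2 scale and stood at 0.03 on TPM, and its call was lost in edgeR with library totals (adjusted p = 0.390). Impad1, a Golgi enzyme that clears spent donor, rose by 0.47 on the log2 scale. The sulfate transporter Slc26a2 rose from 52.8 and 49.5 to 129 and 133 CPM, and Slc13a1, another, had 36 counts in adult and 2 in fetal libraries; both were chosen after their values were seen. Among 5 tested genes of conjugate hydrolysis 1 rose, 1 fell and 3 were not called, where 66.5% were called over all genes tested. Gusb, the lysosomal beta-glucuronidase that removes glucuronic acid, rose from 62.7 and 61.7 to 185.2 and 185.8 CPM (log2 fold change 1.58 ± 0.04 SE, adjusted p = 7.07e-12 in edgeR). Arsa, a lysosomal sulfatase, fell by 0.59 on the log2 scale and stood at 0.00 on log2(TPM + 1). Its call was also lost with DESeq2 (adjusted p = 0.0978) and, in edgeR, with library totals (0.113), without adult replicate 1 (0.0798) and without fetal replicate 1 (0.0517), and held in 7 of 14 alternatives.

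Of 8 tested other esterases and lipases 4 fell, 3 rose and 1 was not called, where 32.7% fell and 33.9% rose over all genes tested. Bche, butyrylcholinesterase, fell from 200 and 210 to 1.54 and 2.28 CPM (log2 fold change -6.75 ± 0.10 SE), and Aadac, arylacetamide deacetylase, from 49.3 and 51.1 to 0.559 and 0.457 CPM (log2 fold change -6.59 ± 0.15 SE). Pon2, a lactonase, fell by 0.24 on the log2 scale but stood at 0.01 with library totals and 0.16 on TPM. Esd, esterase D, rose by 0.17 on the log2 scale. Among the 5 exporters 4 fell and 1 rose, beside the same shares over all genes tested. Abcc2, which carries glucuronides across the apical membrane, fell from 346 and 342 to 10.3 and 13.8 CPM (log2 fold change -4.84 ± 0.07 SE, adjusted p = 2.91e-14 in edgeR). Abcb1a fell from 434 and 435 to 100.5 and 94.4 CPM, Abcc3 by 1.19 on the log2 scale, and Abcc4 rose from 30.2 and 27.4 to 78.2 and 80.1 CPM. The 3 relatives outside the symbol rule, Ugt3a1, Ugt3a2 and Ugt8a, were too low to test.

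Of 15 transcription factors known to act on these genes 11 fell, 2 rose and 2 were not called. Over all genes tested 32.7% fell and 33.9% rose. Hnf4a, a regulator of intestinal and hepatic genes, fell from 755 and 789 to 253 and 264 CPM (log2 fold change -1.58 ± 0.04 SE), and Hnf4g from 57.9 and 56.1 to 7.83 and 8.22 CPM (log2 fold change -2.83 ± 0.08 SE). Arnt, the partner of the aryl hydrocarbon receptor, fell by 0.24 on the log2 scale but stood at 0.01 with library totals and 0.21 on TPM. Its call was lost without fetal replicate 1 (adjusted p = 0.0504 in edgeR). Ahr, its receptor partner, rose by 0.24, a call that was lost with DESeq2 (adjusted p = 0.0685) and, in edgeR, without adult replicate 1 (adjusted p = 0.108). Of the drug-sensing receptors, Nr1i2 fell by 1.94 and Nr1i3 fell by 3.66 on the log2 scale. Ppara, the fatty acid sensor, fell by 4.35. These 3 were chosen after their values were seen.

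**Figure D4:**
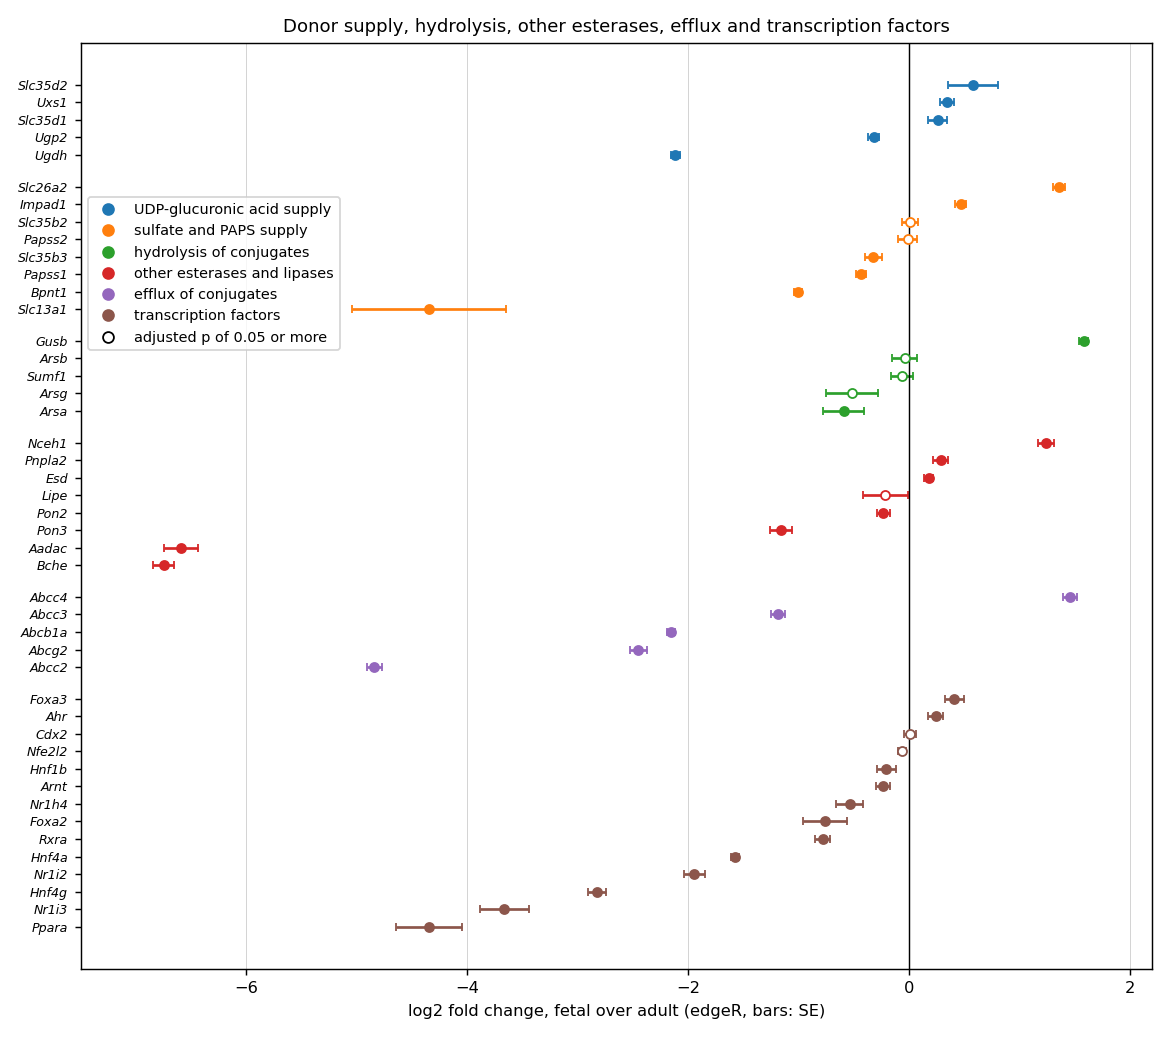
Log2 fold change of fetal over adult for 45 of the 46 tested genes of the lists, with the standard error as bars, coloured by list and filled where the adjusted p was under 0.05. Bche, Aadac and Abcc2 lie at the left, from -6.75 to -4.84, and Gusb at the right, at 1.58; Slc35b3, Arsa, Pon2 and Arnt, left of 0 here, are at or above 0 on TPM.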

How the data were processed

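The first deposited table holds expected counts and the second holds TPM, both per gene and library, as the column headers name them. The column headers name no program. RSEM 1.3.3 and STAR 2.7.3a appear in the submitters' processing notes beside Trim Galore and FastQC, and so do the builds mm10 and GRCm39, all without a role. The annotation and the strand setting are not given in the sources used here. Symbols came from GENCODE M21, which matched 52083 of 55416 identifiers; the 3333 others stayed in all fits. Of the 59 genes, 24 had values that were not whole in at least 1 library.

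Expected counts were rounded and fitted with edgeR 4.0.16 (R 4.3.3), with TMM factors (0.918 in adult, 1.10 and 1.08 in fetal libraries), filterByExpr and no other term. A bound uses a floor of 3 counts per library, and a group with 1 to 3 counts in all gives a ratio with an exact 95% interval. Both cover counting error only. DESeq2 1.42.0 and limma 3.58.1 (log2(TPM + 1), TPM of at least 1 in 2 libraries) were alternatives. The fits were tested on simulated data, where limma made a larger share of false calls than edgeR or DESeq2. Those data were drawn from the kind of count model that edgeR and DESeq2 assume, with the same spread for all genes. Far fewer genes were changed there than were called here. The simulation therefore cannot decide which method's counts of calls are surer in these libraries. The chi-square per degree of freedom between replicates was 3.30 (adult) and 2.81 (fetal), a spread beyond counting error. It does not show that the libraries came from separate animals or cultures. All libraries were counted separately. The common coefficient of variation estimated in edgeR was 0.033.

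Named by rule were, per family, the 8 most abundant called genes, called genes of the rarer direction and uncalled genes of at least 1 CPM; and per list 3 called genes in the commoner and 1 in the other direction. Other Ugt1a and Ces1 genes are named to complete their groups. Members, lists and rule were chosen with earlier results of these data known. The sums over subfamilies, the shared-sequence count, gene order and motifs were added after the values were seen. For 1 gene of the lists no value is reported here, though it is in the counts of its list.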

Additional observations from a re-analysis of the deposited data

How the results depend on the processing

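Of the 26 genes that fell, 24 were called lower under all 14 alternatives; Ces1g and Ugt1a2 were called lower wherever they were tested. The count of genes that fell was 24 to 27, and 25 to 27 when 1 library was dropped. The 2 rises are less firm. Members rising numbered 0 with limma on log2(TPM + 1) or log2(TPM + 0.1), where neither gene passed the filter, and 1 without that filter, where Sult4a1 was lost (0 sulfotransferases rising); for carboxylesterases it was 0 in both filtered fits. With single libraries left out, 1 to 2 members and 0 to 1 sulfotransferases rose. List genes that fell numbered 15 on log2(TPM + 1), 15 on log2(TPM + 0.1) and 14 without filter. Over all genes 1796 of 14013, 1752 of 14013 and 1728 of 27355 fell in these fits. Signs reversed on these 3 scales in turn for Slc35b3 (0.0281, 0.0290, 0.0281), Arsa (0.00323, 0.00405, 0.00323), Pon2 (0.16, 0.16, 0.16) and Arnt (0.21, 0.22, 0.21), and with library totals for Pon2 (0.00859) and Arnt (0.00861). The median of all genes was 0.25 with library totals and 0.36 on log2(TPM + 1), against 0.01, and over all genes 6979 rose and 2973 fell with library totals and 6957 and 1796 on TPM, against 4833 and 4664. With the replicate block Slc35d2 lost its call (0.57, adjusted p = 0.0613 in edgeR). The labels do not say that replicate numbers pair libraries, and deviations of same-numbered libraries correlated at -0.01 over 14271 genes. With the replicate block 26 members fell and 2 rose, and the pairing changed no member's call. Summed by subfamily, log2 fold changes with single libraries left out were -4.28 to -4.22 for Ugt1a, -7.23 to -6.24 for Ugt2a, -2.41 to -2.32 for Ugt2b, -4.74 to -4.62 for Sult1, -6.10 to -5.60 for Ces1 and -5.58 to -5.41 for Ces2. Depth limits the folds of the called genes with under 30 counts in one group: Ugt1a2, Ugt1a9, Ugt2a3, Ugt2b5, Ugt2b36, Sult1c2, Sult4a1, Sult6b2, Ces1b, Ces1c, Ces1d, Ces1e, Ces1f, Ces1g and Ces2f.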
